A study of Mus musculus with 8 samples.

Results

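The genes described here are those whose products remove, bypass or signal the DNA damage made by platinum drugs, read in the kidneys of cisplatin-treated and control mice. They were chosen by name: protein-coding genes whose symbols begin with or equal those of the Ercc, Fanc, Rad, Xrcc, Xpa and Xpc, Ddb, Brca, Msh, Mlh, Rev, Rpa, Rfc, Lig, DNA polymerase, Atm, Atr and Chek genes. In the deposited table of gene counts, 38 such genes were in rows that could be read, out of 35880 such rows, and 37 of them passed the expression filter. Rad21l, a meiotic cohesin subunit, was listed at 0 counts in all 8 libraries, and 3 counts would have been 0.136 to 0.266 CPM (counts scaled to library size). A further 53 genes that match the names were in rows that hold 10 values where the header names 8 libraries. Those rows could not be assigned to libraries, so Ercc1, Ercc5, Ercc6, Ercc8, Ddb2, Fancd2, Fanci, Brca2, Msh6, Polh, Rev3l, Rad18, Atm, Atr and Chek2, among others, were not analysed here. The name rule also takes in 4 genes that share a name stem with repair genes and are described apart from them, namely Ercc6l, Ercc6l2, Fancd2os and Rad21l.

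Bulk RNA sequencing was carried out on kidney tissue of wild-type male C57/BL6J mice, 4 of which were controls given saline and 4 of which were given a single agent, cisplatin, at 23 mg/kg by intraperitoneal injection. Kidneys were taken at 72 h, and libraries are named here by group and labelled number: controls 1, 2, 3 and 5, and cisplatin 1, 3, 4 and 6.

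Cisplatin platinates guanines and links neighbouring bases of a strand, and less often bases of opposite strands. Nucleotide excision repair cuts out the intrastrand adducts: damage sensors and the helicases of the transcription factor TFIIH open the helix, and nucleases release the damaged piece. Adducts between strands need the Fanconi anaemia pathway with homologous recombination, mismatch repair proteins bind adducts without removing them, and translesion polymerases copy past them. In the kidney the drug is taken up mainly by the proximal tubule, whose cells are mostly not dividing and therefore express little of the recombination machinery that works in S phase.

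Total counts over the usable rows ranged from 13539665 to 16201443 in the controls and from 10953338 to 16701599 in the cisplatin libraries. The first principal component held 73.6% of the variance and separated the groups, and the second, with 16%, set control 5, cisplatin 4 and cisplatin 6 apart from the other 5 libraries, which are called the second and first library set below. Cisplatin 1 and 3 held 2 and 0 counts of the Y-linked Kdm5d and 3 and 0 of Eif2s3y, against 274 to 576 and 541 to 1333 in the other 6 libraries, although the mice are described as male. Tests of the repair-named genes whose outcome changes without these 2 libraries are given both ways. Without them the cisplatin libraries left, 4 and 6, are both of the second set, while controls 1, 2 and 3 are of the first. Treatment and library set then cannot be fully told apart. The tissue carried kidney markers: all 12 proximal tubule genes listed were called lower after cisplatin. Their summed level was 60100 to 74400 CPM in the controls and 1600, 946, 8320 and 14100 CPM in cisplatin 1, 3, 4 and 6. Much of this sum was Kap, at 29700 to 35100 CPM in the controls and 544, 229, 6220 and 11000 CPM after cisplatin. The lowest sums were in cisplatin 1 and 3, and whether this goes with their missing Y-linked counts was not tested. Of the 10 leukocyte markers in usable rows 5 were called higher and 2 lower, and their sum was 155 to 205 CPM in controls and 174 to 267 CPM after cisplatin. In bulk tissue, fewer cells of a type and less RNA per cell cannot be told apart.

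A gene was called when edgeR's quasi-likelihood test gave an adjusted p under 0.05, with Benjamini-Hochberg adjustment over 9141 genes, and the log2 fold change of cisplatin against control was at least 1 in size. Of the 37 repair-named genes, 9 were called higher and 3 lower, or 32.4%, where 34.9% of all tested genes were called, 19.2% higher and 15.7% lower. By adjusted p alone 16 were higher and 5 lower, or 56.8%. Of all genes 49.1% passed it, 26.4% higher and 22.6% lower. In 16 genes every cisplatin library lay above every control and in 6 below, against 23.7% and 22.5% of all genes, 46.3% together. The share called was thus near that of all tested genes. By adjusted p and by lack of overlap the genes leaned to higher levels more than all genes did, which was not tested. The pathways below hold 2 to 8 genes each, and no test compared them. The median log2 fold change was 0.43 over the 37 genes and 0.08 over all genes tested. Scaling by total counts in place of TMM moved the latter to 0.64, so each change below is relative to the scaling used, and under total counts 18 of the genes were called higher and 2 lower.

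**Figure D1:**
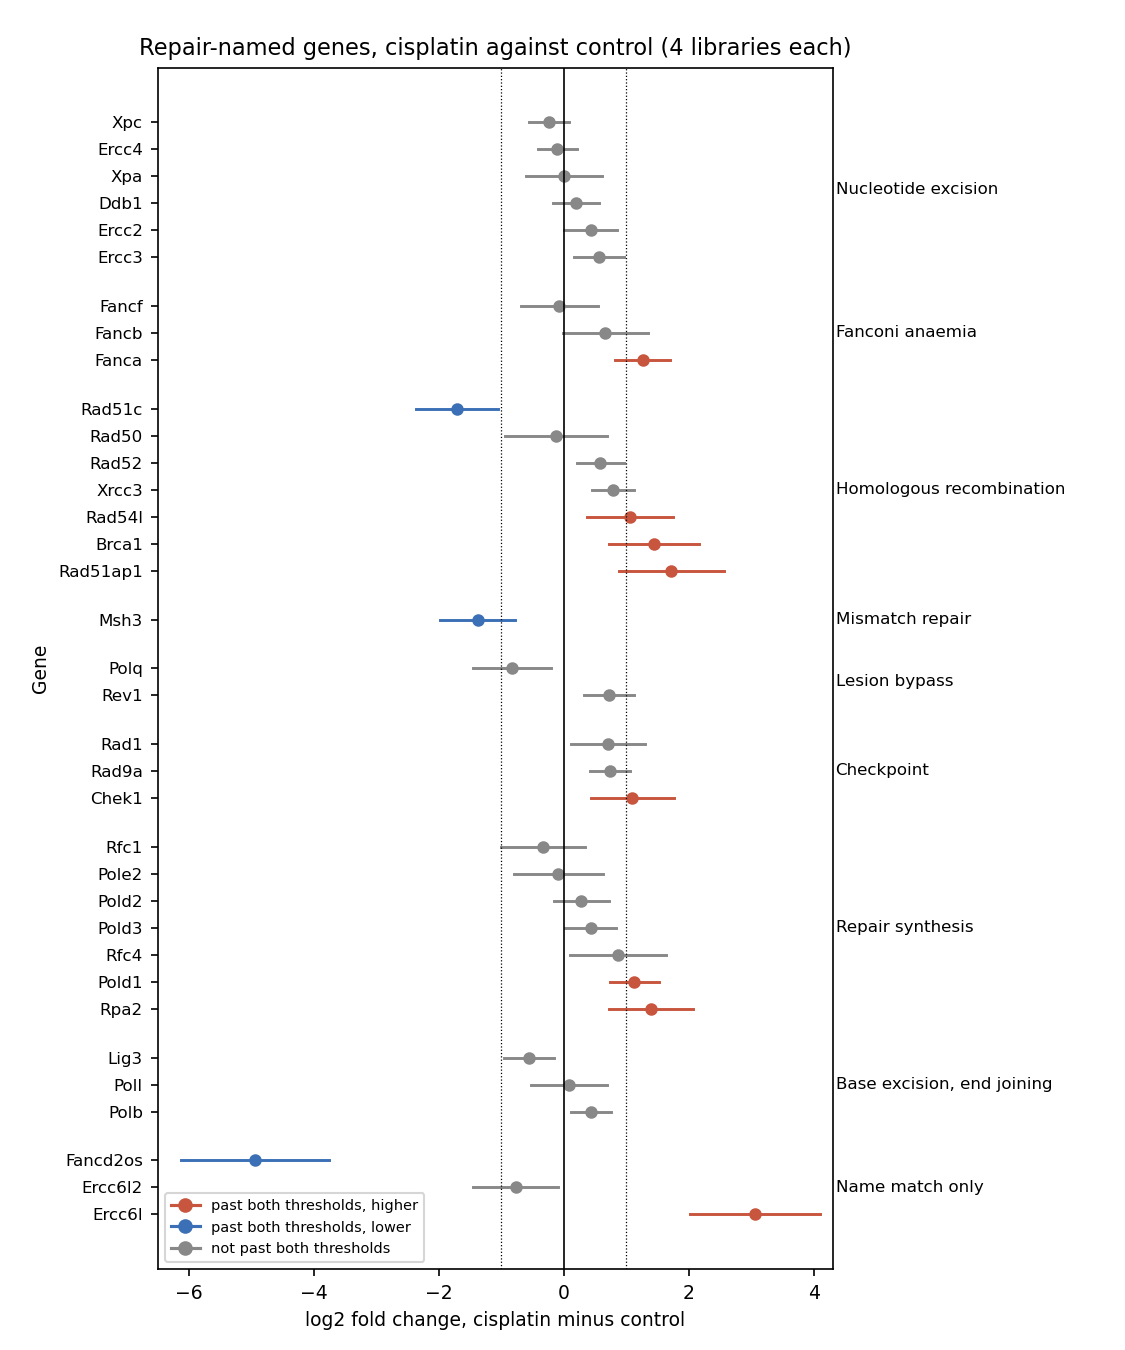
Log2 fold change of cisplatin against control (x axis) for 35 of the 37 tested genes, grouped by pathway, with bars for the 95% interval of the edgeR estimate, red and blue points for genes called higher and lower, grey points for the others, and dotted lines at a change of 1 in either direction. The 6 nucleotide excision repair genes lie between -0.23 and 0.56, and the 7 homologous recombination genes drawn between -1.71 and 1.72.

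Nucleotide excision repair had the smallest changes of the pathways, with a median of 0.22 on the log2 scale regardless of sign. None of the 6 was called, their median log2 fold change was 0.10, and 1, Ercc3, passed the adjusted p. The 2 damage sensors did not pass the test with TMM scaling on group alone over all 8 libraries. Ddb1, the large subunit of the ultraviolet-damage sensor and an adaptor of a ubiquitin ligase (chr19:10605625-10629813 of GRCm38), stood at 486, 487, 437 and 618 CPM in the controls and at 545, 540, 642 and 600 CPM in the cisplatin kidneys. Its groups overlapped, with a log2 fold change of 0.20 (SE 0.16, edgeR adjusted p = 0.34, 95% interval -0.17 to 0.56). Xpc, which recognises distorted helices and starts global genome repair (chr6:91489305-91515888), was at 73.1, 80.6, 71.7 and 89.6 CPM in the controls and at 63.4, 57.1, 75.8 and 71.9 CPM after cisplatin. Cisplatin 1 and 3 lay below every control and the other two cisplatin libraries within their range (log2 fold change -0.23, SE 0.15, edgeR adjusted p = 0.214, interval -0.56 to 0.09).

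Xpa, the scaffold that verifies the lesion (chr4:46155347-46196311), was at 16.3, 20.3, 21.8 and 21 CPM in the controls and at 15.6, 11.9, 27.2 and 25.1 CPM after cisplatin. The cisplatin libraries fell on both sides of the controls, those of the first library set below and those of the second above, and the means were 19.9 ± 2.46 and 20 ± 7.37 CPM (SD, n = 4 each). The interval of its log2 fold change, -0.60 to 0.61, is the widest of the 6. Ercc2, the XPD helicase of TFIIH (chr7:19382010-19395694), was at 17.6, 19.9, 18.4 and 26.4 CPM and then at 24.6, 24.1, 32.5 and 29.4 CPM. Its groups overlapped through control 5 alone (log2 fold change 0.43, SE 0.19, edgeR adjusted p = 0.0897), and without cisplatin 1 and 3 the change was 0.60 (adjusted p = 0.0299).

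Ercc3, the XPB translocase of TFIIH, was at 46.5, 49.0, 46.9 and 52 CPM in the controls and at 63.0, 52.7, 85.3 and 84.9 CPM in the cisplatin kidneys. All 4 cisplatin libraries were above all controls, cisplatin 3 by a small margin, and the log2 fold change was 0.56 (SE 0.18, edgeR adjusted p = 0.0265). Ercc4, the XPF nuclease that incises beside the lesion (chr16:13109684-13150617), had the narrowest controls of the 6, at 37.2, 34.1, 36.3 and 37.2 CPM, and stood at 32.8, 33.0, 38.9 and 29.8 CPM after cisplatin. Its log2 fold change was -0.11 (SE 0.14, edgeR adjusted p = 0.563), and its interval, -0.42 to 0.21, holds no change of 1 in either direction. The intervals of Ddb1, Xpc, Xpa, Ercc2 and Ercc3 do not reach 1 in size either. These calls are relative to TMM scaling. Under total counts Ercc3 was called higher with a log2 fold change of 1.11, and Xpc had a change of 0.33. Ddb1, Ercc2 and Ercc4 then passed the adjusted p as higher (0.76, 0.99 and 0.46). With the library set as a covariate Xpc passed as lower (-0.3, edgeR adjusted p = 0.0198), and Ercc2 and Ercc3 as higher (0.33 and 0.44). In the first library set alone Xpc (-0.38, edgeR adjusted p = 0.0231) and Xpa (-0.56, edgeR adjusted p = 0.0308) passed as lower, under the fold threshold. Ercc3 did not pass there (0.23, edgeR adjusted p = 0.137). It also did not pass without control 1, 2 or 3 or cisplatin 4 or 6, each left out in turn (edgeR adjusted p of 0.0596 to 0.0735).

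**Figure D2:**
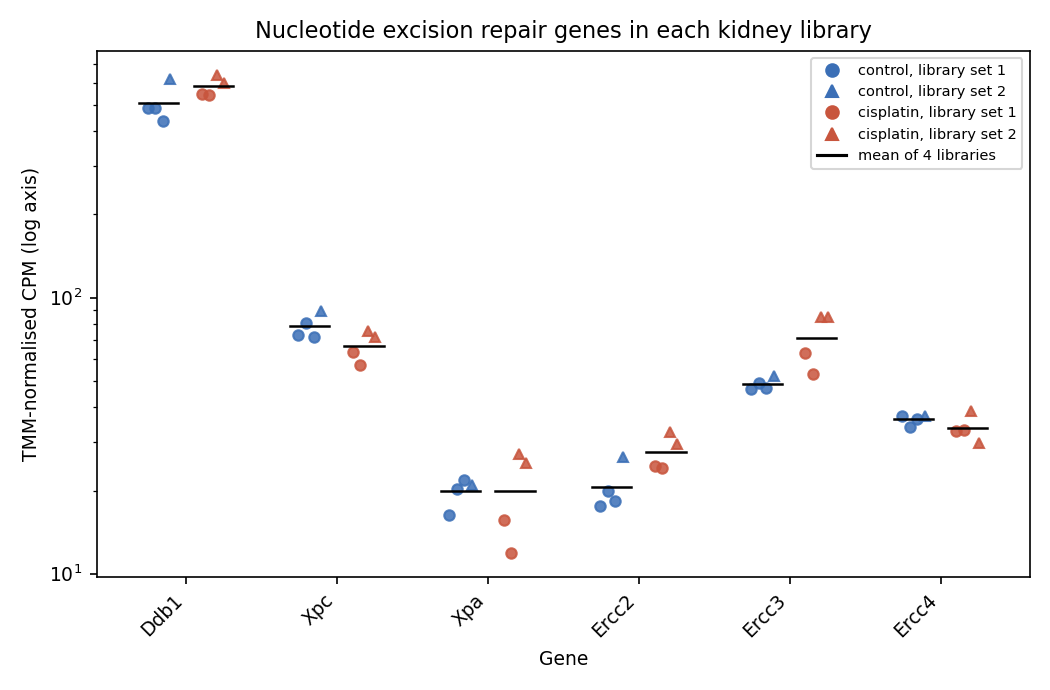
CPM on a log axis (y) of the 6 nucleotide excision repair genes in each of the 4 control (blue) and 4 cisplatin (red) libraries, with a line at each group mean and triangles for the second library set. The groups overlap in every gene but Ercc3.

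The Fanconi anaemia pathway recognises and unhooks links between strands, and 3 of its core complex genes were measured. Fanca, a core complex subunit (chr8:123268300-123318576), was at 8.32, 8.54, 12.4 and 8.57 CPM in the controls and at 20.7, 25.2, 24.5 and 20.1 CPM in the cisplatin kidneys. The groups were well apart, with a 2.39-fold higher level after cisplatin (log2 fold change 1.26, SE 0.20, edgeR adjusted p = 0.000617). Exons of Fanca overlap 920 bases of Zfp276 on the opposite strand. Whether counting used strand is not given in the sources used here, and without strand the reads of both genes cannot be told apart. Fancb and Fancf, also core complex subunits, did not pass the test, with log2 fold changes of 0.66 (interval -0.02 to 1.34) and -0.07 (interval -0.69 to 0.55). Both were low, at 1.26 to 1.97 CPM and 2.83 to 5.11 CPM in the controls.

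Homologous recombination held the most genes and the most called genes, 4 higher and 1 lower of 8, where 34.9% of all tested genes were called. Of 11 other recombination genes outside the name rule, 2 were called higher and 1 lower (27.3%), with a median log2 fold change of -0.01. Rad51ap1, which stimulates strand exchange (chr6:126923050-126939587), was at 1.06, 0.798, 1.14 and 0.393 CPM in the controls and at 2.23, 2.64, 2.71 and 3.73 CPM after cisplatin. Its groups did not overlap, at a 3.30-fold higher level (log2 fold change 1.72, SE 0.37, edgeR adjusted p = 0.00403).

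Brca1, which promotes end resection and recombination (chr11:101488764-101551955), was at 1.95, 1.75, 1.29 and 1.18 CPM in the controls and at 2.64, 4.56, 4.61 and 5.15 CPM after cisplatin. Cisplatin 1 was the nearest to the controls, and the level was 2.74-fold higher (log2 fold change 1.45, SE 0.32, edgeR adjusted p = 0.00451). Rad54l, a motor protein that remodels DNA during strand exchange (chr4:116094264-116123690), was at 1.86, 1.44, 2.05 and 1.10 CPM and then at 3.23, 3.85, 2.49 and 3.89 CPM. Its log2 fold change of 1.06 (SE 0.31, edgeR adjusted p = 0.0169) was close to the threshold, and the call was lost without control 2 (1.0, adjusted p = 0.0522), control 5 (0.90), cisplatin 3 (0.97) or cisplatin 6 (0.99), and without cisplatin 1 and 3 together (0.98). Exons of Rad54l share 1184 bases with Lrrc41 on the opposite strand.

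The recombination gene called lower was Rad51c, whose product acts in paralogue complexes that assist strand exchange (chr11:87376645-87404954). It was at 5.22, 3.91, 3.94 and 4.80 CPM in the controls and at 1.91, 1.04, 1.24 and 1.19 CPM after cisplatin. All 4 cisplatin libraries were below all controls, and the level was 3.28-fold lower (log2 fold change -1.71, SE 0.30, edgeR adjusted p = 0.00112). Its partner in one of these complexes, Xrcc3, was at 22.8 to 27.5 CPM in the controls and at 36.7 to 48.6 CPM after cisplatin, higher by a log2 fold change of 0.79 (SE 0.15, edgeR adjusted p = 0.00201) and under the fold threshold. Rad52, which anneals complementary strands, was at 15.5 to 18 CPM and 19.7 to 27.8 CPM, without overlap (0.58, SE 0.17, edgeR adjusted p = 0.0162).

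Rad50, the ATPase subunit of the complex that senses broken ends, followed the library sets and not the treatment. It was at 47.4, 48.8 and 53.1 CPM in controls 1, 2 and 3 and at 59.6 and 51.8 CPM in cisplatin 1 and 3, against 23.4 CPM in control 5 and 23.9 and 23 CPM in cisplatin 4 and 6. Its log2 fold change was -0.12 (SE 0.36, edgeR adjusted p = 0.803, interval -0.94 to 0.69). Without cisplatin 1 and 3 it was -0.88, at an edgeR adjusted p of 0.05 as rounded, just past the threshold. With the library set as a covariate it was 0.11 (edgeR adjusted p = 0.414).

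Most listed markers of dividing cells were also higher after cisplatin, while Ccnb1, Ccnb2, Plk1 and Cenpf did not pass the adjusted p. Of the 17 cycling-cell markers in usable rows, 12 were called higher and none lower, and their summed level was 101 to 138 CPM in the controls and 248, 232, 433 and 520 CPM in cisplatin 1, 3, 4 and 6. Mki67, Top2a, Ccna2, Bub1, Mcm4 and Mcm6 were not among them, since they were in rows not analysed here. The order of the cisplatin libraries in this sum was not that of every repair gene: Brca1 and Rad51ap1 were highest in cisplatin 6, while Rad54l and Pold1 were lowest in cisplatin 4 and Fanca in cisplatin 6. The part of cycling cells in the changes of the recombination, checkpoint and replication genes was not tested.

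**Figure D3:**
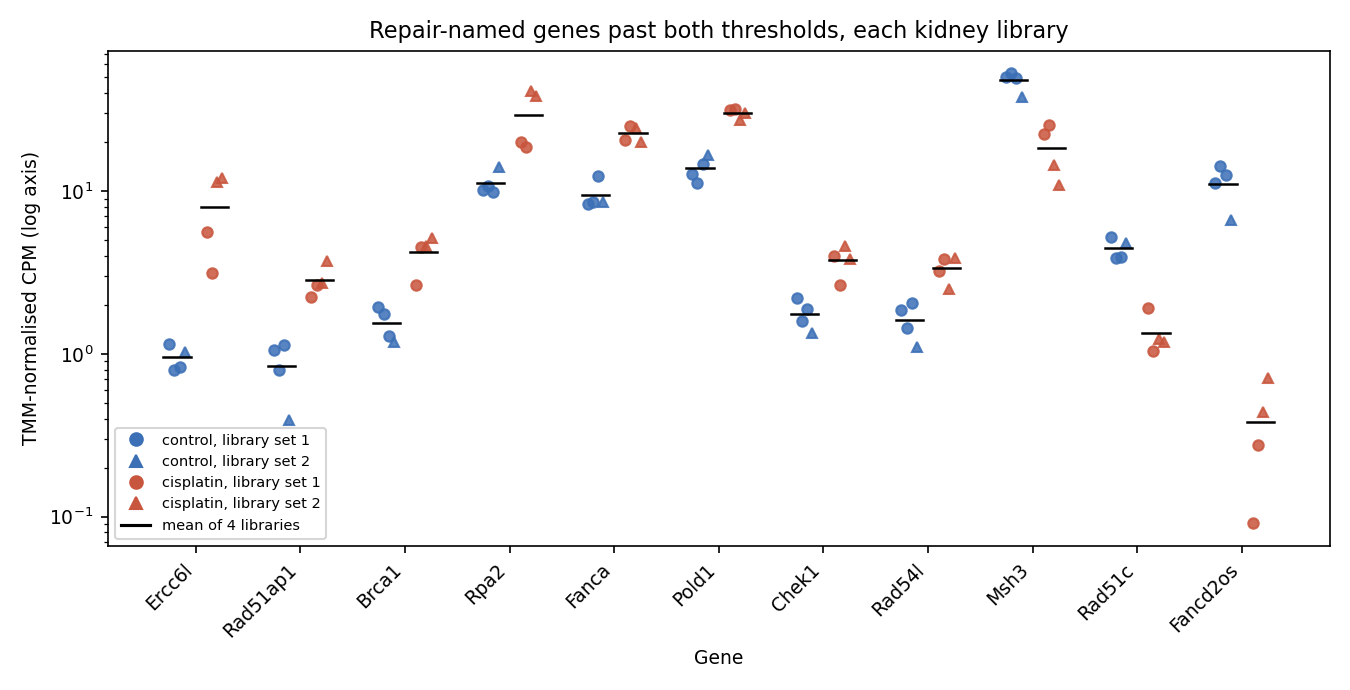
CPM on a log axis (y) of 11 of the 12 called genes in each library, controls in blue, cisplatin in red, with a line at each group mean and triangles for the second library set. In all 11 genes the 4 cisplatin libraries lie on one side of the 4 controls.

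The stretches just upstream of the start of 5 genes called higher are shown. They were picked for holding a CCAAT box, and the promoters of Chek1 and Pold1, also called higher, hold none and are not shown. They are RefSeq promoter bases of GRCm38.p6 from 100 before the RefSeq start to the last before it, on the strand of the gene. The CCAAT box (CCAAT, or ATTGG where it is on the other strand) is in capitals. For Rpa2 and Rad54l the RefSeq start lies inside the deposited coordinates of the gene, so the end of each stretch is within them.
Brca1, chr11:101551956-101552055, minus strand: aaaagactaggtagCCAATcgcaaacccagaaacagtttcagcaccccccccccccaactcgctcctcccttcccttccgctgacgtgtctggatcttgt
Rad51ap1, chr6:126939588-126939687, minus strand: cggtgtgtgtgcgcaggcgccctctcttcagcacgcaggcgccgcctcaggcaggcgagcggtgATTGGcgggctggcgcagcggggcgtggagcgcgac
Rad54l, chr4:116123690-116123789, minus strand: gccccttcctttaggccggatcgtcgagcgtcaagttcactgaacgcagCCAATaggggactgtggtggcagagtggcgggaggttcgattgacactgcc
Fanca, chr8:123318577-123318676, minus strand: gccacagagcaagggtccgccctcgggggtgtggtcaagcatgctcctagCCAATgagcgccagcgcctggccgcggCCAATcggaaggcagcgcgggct
Rpa2, chr4:132768260-132768359, plus strand: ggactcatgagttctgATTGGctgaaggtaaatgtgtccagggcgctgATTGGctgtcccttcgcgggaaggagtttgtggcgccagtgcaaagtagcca

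Promoters were found for 29 of the 38 genes, and the windows searched ran from 250 bases before to 50 after the start, on both strands. A CCAAT box was in 5 of 7 genes called higher that had a promoter, in 8 of 18 not called and in 0 of 3 called lower. The same letters were in 37.4% of all 32851 promoters and in 41.0% of the promoters of all genes called higher, and 5 of 7 is a count over few genes. E2F letters (TTTGGCGC, TTTCCCGC, TTTGCCGC or TTTCGCGC, which can overlap, as in Msh3) were in 5 of the 29, namely Msh3, Rad51c, Pold1, Pold3 and Pole2, against 3.91% of tested genes with a promoter and 2.26% of all promoters. Of these, 1 was called higher and 2 lower. The cell cycle homology letters TTTGAA or TTTAAA were in 6 of 29 and in 0 of the 7 called higher, against 27.6% of all promoters.

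Among the mismatch repair genes, Msh3 was called lower. Its product binds unpaired loops and some platinum links between strands (chr13:92211872-92355003). It was at 50.6, 53.0, 49.8 and 38.0 CPM in the controls and at 22.4, 25.6, 14.5 and 10.9 CPM after cisplatin. The groups were far apart, with the second library set lowest in both, and the level was 2.60-fold lower (log2 fold change -1.38, SE 0.27, edgeR adjusted p = 0.00229).

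The 2 damage-tolerant polymerases differed in direction. Rev1, which inserts cytosine opposite damaged guanine and recruits other bypass polymerases (chr1:38052786-38129801), was at 22.8, 26.2, 23.3 and 20.8 CPM in the controls and at 40.4, 47.9, 34.6 and 30.4 CPM after cisplatin. It was higher in all 4 cisplatin libraries, with a log2 fold change of 0.72 (SE 0.18, edgeR adjusted p = 0.00829), under the fold threshold. Exons of Rev1 share 1643 bases with Eif5b on the opposite strand. Polq, which joins broken ends by short homologies, was at 1.97 to 2.58 CPM and then at 1.03 to 1.54 CPM, lower without overlap (-0.83, SE 0.28, edgeR adjusted p = 0.0318). Without cisplatin 1 and 3 its change of -0.82 did not pass (adjusted p = 0.0761).

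All 3 checkpoint genes were higher by adjusted p over all libraries, as were 26.4% of all tested genes, and 1 was called. Chek1, the kinase that stops the cycle when replication stalls (chr9:36708482-36727065), was at 2.21, 1.60, 1.90 and 1.34 CPM in the controls and at 4.0, 2.64, 4.61 and 3.81 CPM after cisplatin. The groups did not overlap, and the log2 fold change of 1.09 (SE 0.30, edgeR adjusted p = 0.0128) fell below the threshold without control 5 (0.97) or cisplatin 4 (0.98) and in the first library set alone (0.75, adjusted p = 0.0724). Rad9a and Rad1, subunits of the clamp that activates the Atr kinase, had log2 fold changes of 0.74 (SE 0.14, edgeR adjusted p = 0.00219) and 0.71 (SE 0.27, edgeR adjusted p = 0.0498). Rad9a was at 14.8 to 16.4 CPM and then at 24.2 to 26.8 CPM, while the groups of Rad1 overlapped through control 5 at 20.5 CPM. Without cisplatin 1 and 3, Rad1 was called higher (1.07, edgeR adjusted p = 0.00315). Its change was under the fold threshold with the library set as a covariate (0.49, edgeR adjusted p = 0.00986). Rad1 did not pass in the first library set alone (0.34, edgeR adjusted p = 0.0704). It also did not pass without control 1, 2 or 3 or cisplatin 4 or 6, each left out in turn (edgeR adjusted p of 0.105 to 0.143).

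Of the 7 genes of repair synthesis 2 were called, both higher (28.6%, against 34.9% of all tested genes). Pold1, the catalytic subunit of DNA polymerase delta (chr7:44532746-44548849), was at 12.8, 11.2, 14.6 and 16.7 CPM in the controls and at 31.6, 32.0, 27.2 and 30 CPM after cisplatin. The cisplatin libraries were close to each other and far from the controls, at a 2.19-fold higher level (log2 fold change 1.13, SE 0.17, edgeR adjusted p = 0.000599). Rpa2, a subunit of the protein that covers single-stranded DNA in excision repair and replication (chr4:132768332-132778752), was at 10.2, 10.7, 9.93 and 14.1 CPM and then at 19.9, 18.6, 41.2 and 38.5 CPM. The cisplatin libraries of the second set were the highest, and the log2 fold change was 1.39 over all libraries (SE 0.30, edgeR adjusted p = 0.00366) and 0.85 in the first set alone (adjusted p = 0.00172), where it was no longer called. The other subunits of polymerase delta, Pold2 and Pold3, and Pole2 of polymerase epsilon had log2 fold changes of 0.28, 0.43 and -0.09 that did not pass. The clamp loader subunits Rfc1 and Rfc4 had changes of -0.33 and 0.87, and Rfc1 was at 66.2 to 73.0 CPM in the 5 libraries of the first set and at 47.3, 30.4 and 32.8 CPM in the second. Without cisplatin 1 and 3, Rfc1 was called lower (-1.01, edgeR adjusted p = 0.00433) and Rfc4 higher (1.32, edgeR adjusted p = 0.00435). Neither was called with the library set as a covariate (-0.2, edgeR adjusted p = 0.206, and 0.59, edgeR adjusted p = 0.0325).

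The 3 genes of base excision repair and end joining that the names take in changed by less than the fold threshold. Polb, the gap-filling polymerase, was at 31.6 ± 1.49 CPM in the controls and 43.0 ± 5.05 CPM after cisplatin (SD, n = 4 each), with a log2 fold change of 0.44 (edgeR adjusted p = 0.0271). Lig3, which seals the nick, went from 40.6 ± 4.41 to 27.6 ± 5.31 CPM (-0.56, edgeR adjusted p = 0.0248). Poll, a polymerase of end joining, had a change of 0.08 (edgeR adjusted p = 0.83). Lig3 shares 1826 exonic bases with Rffl.

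The largest changes in either direction among the name-matched genes belonged to 2 that are not adduct repair genes. Ercc6l encodes a helicase that acts on DNA threads between chromosomes at mitosis (chrX:102141716-102157091). It was at 1.15, 0.798, 0.834 and 1.02 CPM in the controls and at 5.64, 3.13, 11.3 and 12 CPM after cisplatin, an 8.35-fold higher level (log2 fold change 3.06, SE 0.47, edgeR adjusted p = 0.000538). As with the summed level of the cycling markers, cisplatin 4 and 6 were the highest. Single markers did not all share this order: among the cisplatin libraries Tpx2 (6.52 CPM) and Cenpf (1.24 CPM) were lowest in cisplatin 4. Fancd2os lies opposite Fancd2, with 257 bases of shared exon (chr6:113596761-113600715), and was at 11.2, 14.2, 12.5 and 6.60 CPM in the controls and at 0.091, 0.275, 0.439 and 0.714 CPM after cisplatin. The cisplatin values rest on 2, 5, 6 and 9 counts, and the log2 fold change was -4.94 (SE 0.53, edgeR adjusted p = 7.33e-05). Reads of Fancd2 itself and of its opposite gene cannot be separated without the strand setting, and the row of Fancd2 was not analysed here. Ercc6l2, a related helicase, had a change of -0.77 that did not pass (edgeR adjusted p = 0.0575) and was called lower without cisplatin 1 and 3 (-1.44, adjusted p = 0.00118). Its change was under the fold threshold with the library set as a covariate (-0.65, edgeR adjusted p = 0.00395). Without the name-only genes, 8 of 34 were called higher and 2 lower, or 29.4%, with a median of 0.44.

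Other genes of the same pathways, listed by role and outside the name rule, numbered 97, of which 41 were in rows not analysed and 55 were tested. Of these 10 were called higher and 7 lower, or 30.9%, against 34.9% of all tested genes. Their median log2 fold change was 0.09. In nucleotide excision repair 2 of 6 were called, a share of 33.3%, near that of all genes. Both were lower, and both are subunits that TFIIH shares with its transcription role. Gtf2h2, a core subunit, was at 54.1, 46.5, 51.2 and 32.9 CPM in the controls and at 23.1, 18.6, 21.2 and 22.1 CPM after cisplatin (log2 fold change -1.12, SE 0.19, edgeR adjusted p = 0.000896). Ccnh, the cyclin of its kinase module, was at 49.6, 57.6, 51.0 and 40.8 CPM and then at 26.2, 23.8, 22.5 and 20.3 CPM (-1.10, SE 0.16, edgeR adjusted p = 0.000435). Thus subunits of TFIIH differed in direction over all 8 libraries, with Gtf2h2 and Ccnh below every control and Ercc3 higher by adjusted p. Ercc3 did not pass in the first library set alone (0.23, edgeR adjusted p = 0.137).

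Among the 11 other Fanconi and crosslink genes 3 were called higher and 1 lower (36.4%, against 34.9% of all tested genes). Ube2t, the enzyme that conjugates ubiquitin to Fancd2, was at 1.06, 0.239, 1.37 and 0.629 CPM and then at 2.05, 2.42, 4.25 and 5.63 CPM (log2 fold change 2.10, edgeR adjusted p = 0.00854). Brip1, the helicase partner of Brca1, was lower at 1.65 to 2.30 CPM against 2.52 to 8.54 CPM, with control 5 the lowest control (-1.73, edgeR adjusted p = 0.00485). Eme1, a partner of the Mus81 nuclease, rested on under 1 CPM in the controls (2.02, edgeR adjusted p = 0.00616). In recombination, the exonuclease Exo1 was higher (1.77, edgeR adjusted p = 0.00371) but rested on 5, 3, 7 and 5 counts in the controls. Gen1, which cuts recombination junctions, was lower (-1.19, edgeR adjusted p = 0.00608). In the checkpoint Clspn, which brings Chek1 to its kinase, was higher (2.04, edgeR adjusted p = 0.00394), from 0.472 to 1.86 CPM in the controls. H2afx, the histone phosphorylated at breaks, had a change of 1.25 with overlapping groups (edgeR adjusted p = 0.0184). In mismatch repair Pms1 (-1.48, edgeR adjusted p = 0.00621) and in damage tolerance the fork-remodelling Zranb3 (-1.75, edgeR adjusted p = 0.00151) were lower. None of the 3 proteins listed as binding adducts, Hmgb1, Ubtf and Tbp, was called or passed the adjusted p.

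Genes that span more of the genome were lower. Over all 9141 genes the median log2 fold change was 0.38 for spans under 10 kb, 0.14 from 10 to 30 kb, -0.11 from 30 to 100 kb and -0.48 at 100 kb or more, and 30.1% of the 989 longest genes were called lower. Msh3, at 143 kb, was the sole tested name-matched gene in the longest class. Of the 9 related genes in that class 4 were called lower and 0 higher, with a median of -0.96, among them Prkdc at 204 kb, Zranb3 at 149 kb, Brip1 at 143 kb and Pms1 at 108 kb. Across genes, which are not independent replicates and share their libraries, Spearman's correlation of span with log2 fold change was -0.27 over the 37 genes, -0.52 over the 55 related genes and -0.24 over all genes. The part of gene span in the lower level of Msh3 was not tested.

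**Figure D4:**
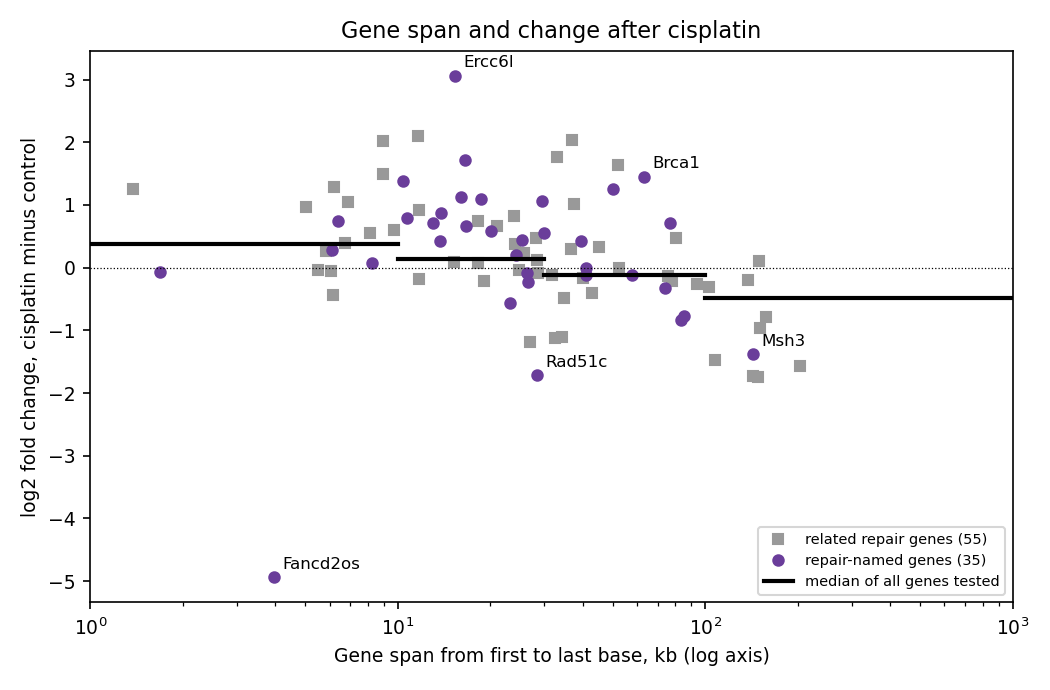
Log2 fold change of cisplatin against control (y axis) against the genomic span of the gene in kb (x axis, log scale) for 35 name-matched (circles) and 55 related repair genes (squares), with a line at the median of all tested genes in each span class. The medians fall from 0.38 under 10 kb to -0.48 at 100 kb or more.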

How the data were processed

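Kidney RNA of 4 control and 4 cisplatin mice was sequenced, and the authors deposited raw read counts per gene in 1 table with a column for each library. The submitters' processing notes name fastp, HISAT2 and GRCm38. The counting tool, annotation release and strand setting are not given in the sources used here. The paper and the labels name different library kits, and which was used is unsure. Of 53715 rows, 35880 held 8 values and were used, and 17835 (33.2%) held 10 values, with 2 unnamed extra columns that were used in no step.

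Counts were fitted in R 4.3.3 with edgeR 4.0.16 (default expression filter, TMM, quasi-likelihood test, Benjamini-Hochberg adjustment over all tested genes), on group alone. CPM are TMM-normalised. The SE is the absolute log2 fold change divided by the square root of F, and 95% intervals use the degrees of freedom of the fit. Per the labels and methods, each library is from a separate mouse. Libraries of one group differed beyond sampling noise. Each 3 counts were 0.136 to 0.266 CPM, which covers counting error only. The procedure was tested on simulated counts.

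The genes and lists were chosen with earlier results of these data known. Values per library are given for every called gene and for Xpa, Xpc, Ddb1, Ercc2 to Ercc4, Fanca, Brca1, Rev1 and Chek1. Called related genes are named up to the 8 largest changes in each direction, and some of them are given with values per library. All other genes were named after their values were seen. Some genes that this rule or the name rule takes in are counted but not reported here by name. Of the 38 genes 36 had the same coordinates in GENCODE M21 (Ddb1 and Rad9a did not, and the deposited ones are given), and 16 shared exonic bases with another gene. The alternatives were DESeq2 1.42.0, other scalings and filters, a fit without mitochondrial and the 10 most abundant genes, a test of changes beyond a log2 of 1, the replicate block, the library sets, and each library left out in turn.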

Additional observations from a re-analysis of the deposited data

Results flagged for a closer look

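Over the 37 tested genes in 2 groups of 4 libraries, 3 of 74 groups held a library whose gap to the nearest other library, as a share of the group's range, was above Dixon's 95% critical value for 4 samples. Chance marks about 1 group in 20. Fanca in the controls was at 12.4 CPM in control 3 and at 8.32 to 8.57 CPM in the others, and control 3 was still below every cisplatin library. Poll in the controls was at 30.4 CPM in control 5 and at 16.5 to 17.4 CPM in the others. Rad1 in the controls was at 20.5 CPM in control 5 and at 13.3 to 14.5 CPM in the others, and this library is why its groups overlapped. Control 5 is the one control of the second library set.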

How the results depend on the processing

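No result reversed. Of 237 values of called genes under the alternatives 215 kept their call and 22 did not, and DESeq2 on the same genes called the same 9 higher and 3 lower. Rad51c, Ercc6l and Fancd2os kept their calls wherever they were tested. Scaling by total counts gave 18 genes called higher, 25 higher and 3 lower by adjusted p, 3174 and 803 of all genes called higher and lower (79.8% of calls higher, against 55%), and 19 and 2 related genes. Its median log2 fold changes were 0.66 for excision repair, 1.22 Fanconi, 1.48 recombination, -0.19 mismatch, 0.51 bypass, 1.30 checkpoint, 1.0 synthesis and 0.64 for base excision, and Msh3 fell to -0.80. With at least 10 counts in every library, 1101 of all genes and 5 related genes were called higher, and the name-only median was 1.17. The test against a log2 fold change of 1 left 2 genes higher, Ercc6l among them, and 2 lower, which were also its counts by adjusted p, with 885 and 803 of all genes and 2 and 2 related genes. Leaving out cisplatin 1 and 3 gave 10 genes called higher, adding Rad1 and Rfc4 and losing Rad54l, and 5 lower, adding Rfc1 and Ercc6l2, and medians of 0.35 for excision repair, -1.05 mismatch, 1.07 checkpoint, 0.38 base excision and -1.44 name-only. With the library set as a covariate Rad1, Rfc4, Rfc1 and Ercc6l2 were not called, and 5 related genes were called higher. The first set alone gave 3 of them and an excision repair median of -0.02. Leaving out each library in turn gave 8 to 10 genes called higher and 3 to 4 lower, 12 to 19 and 3 to 6 by adjusted p, 5 to 11 and 7 to 9 related genes, and 1559 to 1848 and 1351 to 1533 of all genes, with medians of -0.02 to 0.2 for excision repair and -0.09 to 0.33 for base excision. The causes were not tested, except that a stricter filter or test leaves fewer genes to call. Numbers 1 and 3 occur in both groups, from different mice, and their deviations correlated at 0.25 and 0.28, against 0.15 to 0.36 for other pairs of the first set, so they were not read as pairs. The replicate block gave 12 genes higher and 3 lower by adjusted p and 2 related genes called higher. Depth limits the genes under 2 CPM.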

Other observations

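Of 13 base excision repair and end joining genes outside the name rule, 3 were called higher and 1 lower (30.8%, against 34.9% of all tested genes). The 3 called higher are DNA glycosylases, which cut damaged or wrong bases from the sugar. Of the other glycosylases, Tdg (0.67) and Mutyh (0.92) were higher by adjusted p alone (edgeR, 0.0141 and 0.0201), and Ogg1 (0.56), Neil1 (-0.04) and Nthl1 (-0.44) did not pass. Ung, which removes uracil, was at 2.83, 3.35, 2.96 and 4.48 CPM in the controls and at 8.14, 6.27, 12.8 and 11.3 CPM after cisplatin (log2 fold change 1.49, SE 0.30, edgeR adjusted p = 0.00276). Mpg, which removes alkylated purines, was at 12, 10.8, 15 and 16.7 CPM and then at 18.6, 16.8, 50.1 and 47.7 CPM, so that cisplatin 3 was barely above control 5 and the second library set was far higher (1.29, SE 0.38, edgeR adjusted p = 0.0182). Exons of Mpg share 1340 bases with Nprl3 on the opposite strand. Neil3, which acts on oxidised bases and on some crosslinks, had a change of 1.64 close to the threshold (edgeR adjusted p = 0.0497) at under 2 CPM in the controls. Prkdc, the catalytic subunit of the end joining kinase, was at 28, 30, 31 and 31.8 CPM in the controls and at 13.2, 12.4, 5.93 and 8.96 CPM after cisplatin (-1.57, SE 0.25, edgeR adjusted p = 0.000676).

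In the controls, levels per kb of transcript, in CPM per kb by the length the table gives, ran from 122 for Ddb1 (105 to 149 over the 4 libraries) to 0.176 for Rad51ap1 (0.0817 to 0.236). Ddb1 stood apart from Ercc3 at 17.1 and Xpc at 14.3, whose ranges are 16.4 to 18.3 and 13.1 to 16.3. Among the lowest genes were Rad51ap1, Ercc6l at 0.179, Brca1 at 0.181 and Rad54l at 0.209, whose ranges overlap, so their order is not resolved. Polq at 0.237 (0.203 to 0.266) also overlaps Rad54l. After cisplatin these 4 were called higher, and Polq was lower by adjusted p.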
